A study of Mus musculus with 16 samples.

Results

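Circular RNAs (circRNAs) of 3 genes of the contractile apparatus, Myh6, Fhod3 and Actn2, were described in hearts of male C57BL/6 mice. The 3 genes were chosen by symbol, and every circRNA that the deposited table assigns to one of them was taken: 193 of 68854 listed circRNAs, of which 111 of 40381 had a count in at least 1 library. Myh6 had 114 listed circRNAs and 63 with a count, Fhod3 had 60 and 36, and Actn2 had 19 and 12. In MIRI+AICAR hearts the left anterior descending coronary artery was tied for 30 min and then released for 1 week, and the mice were given AICAR, an activator of the energy sensor AMP-activated protein kinase (AMPK). MIRI+Compound C mice had the same injury with Compound C, an inhibitor of AMPK. MIRI mice had the injury alone, and Sham mice were the blank control, without ligation. No dose of either agent is stated. The table holds 5 MIRI+AICAR, 5 MIRI+Compound C, 3 MIRI and 3 Sham libraries. The design lists 8 mice per group and 32 in all. No label ties a library to a mouse or says whether mice were pooled, so every p-value here covers variation among libraries, part of which can be technical.

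A circRNA forms when a downstream 5′ splice site (the donor) is joined back to an upstream 3′ splice site (the acceptor), and it is counted by the reads that cross this back-splice junction. In the sarcomere, myosin thick filaments pull on actin thin filaments that are anchored in the Z-disc. Myh6 encodes α-myosin heavy chain, the main motor protein of the adult mouse ventricle. Actn2 encodes α-actinin-2, which crosslinks actin filaments in the Z-disc, and Fhod3 encodes a formin that is needed for the assembly and upkeep of thin filaments in cardiac muscle.

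The libraries held 119948 to 240889 back-splice counts, of which the 3 genes together made up 0.142% to 0.257%. Depth differed by group: every MIRI+AICAR library (178086 to 240889) was deeper than every Sham (119948 to 163551) and MIRI library (124023 to 173011). MIRI+Compound C libraries held 140677 to 187227 counts. The labels give cardiac muscle cells as the cell type, with no isolation step described. The summed level of 12 cardiomyocyte marker genes, 2 of them Myh6 and Actn2, in CPM (back-splice counts scaled to a common library total) ran from 23143 to 41369 over the 16 libraries, and all 12 had a count. Their counts were uneven, from 17 for Myh7 to 31164 for Slc8a1. Markers of other cell types were present as well: the sums of 12 leukocyte markers and of 11 endothelial markers lay between 1787 and 4625 CPM. In whole tissue, fewer cells of a type and less RNA per cell cannot be told apart, and linear transcripts were not analysed here. The sum of 9 platelet and megakaryocyte markers stood at 4238 CPM in MIRI+AICAR replicate 5 and 14894 CPM in MIRI replicate 1, against group medians of 771 to 1175 CPM; of these markers Pf4, Ppbp, Gp1ba and Itga2b had 0 counts in all libraries. Results without these 2 libraries are given where they change.

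Most counts of each gene came from a few exonic circles. Of the circRNAs with a count, 28 of Myh6, 31 of Fhod3 and 11 of Actn2 were exonic with both ends on exon ends of 1 reference transcript, and they held 90.8%, 98.3% and 98.9% of the gene's counts. These circles joined 1 to 9 exons in Myh6, 2 to 11 in Fhod3 and 2 to 6 in Actn2, with a median of 4 in each gene. Their median lengths, with introns removed, were 499 nt, 620 nt and 530 nt. In all 3 genes, 0 of them used the first or the last exon. This follows from the definition above, since a first exon has no acceptor and a last exon no donor. Few circles were seen everywhere: 2 Myh6, 6 Fhod3 and 0 Actn2 circRNAs had a count in all 16 libraries, whereas 43 of 63, 9 of 36 and 4 of 12 had a count in 1 library only.

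**Figure D1:**
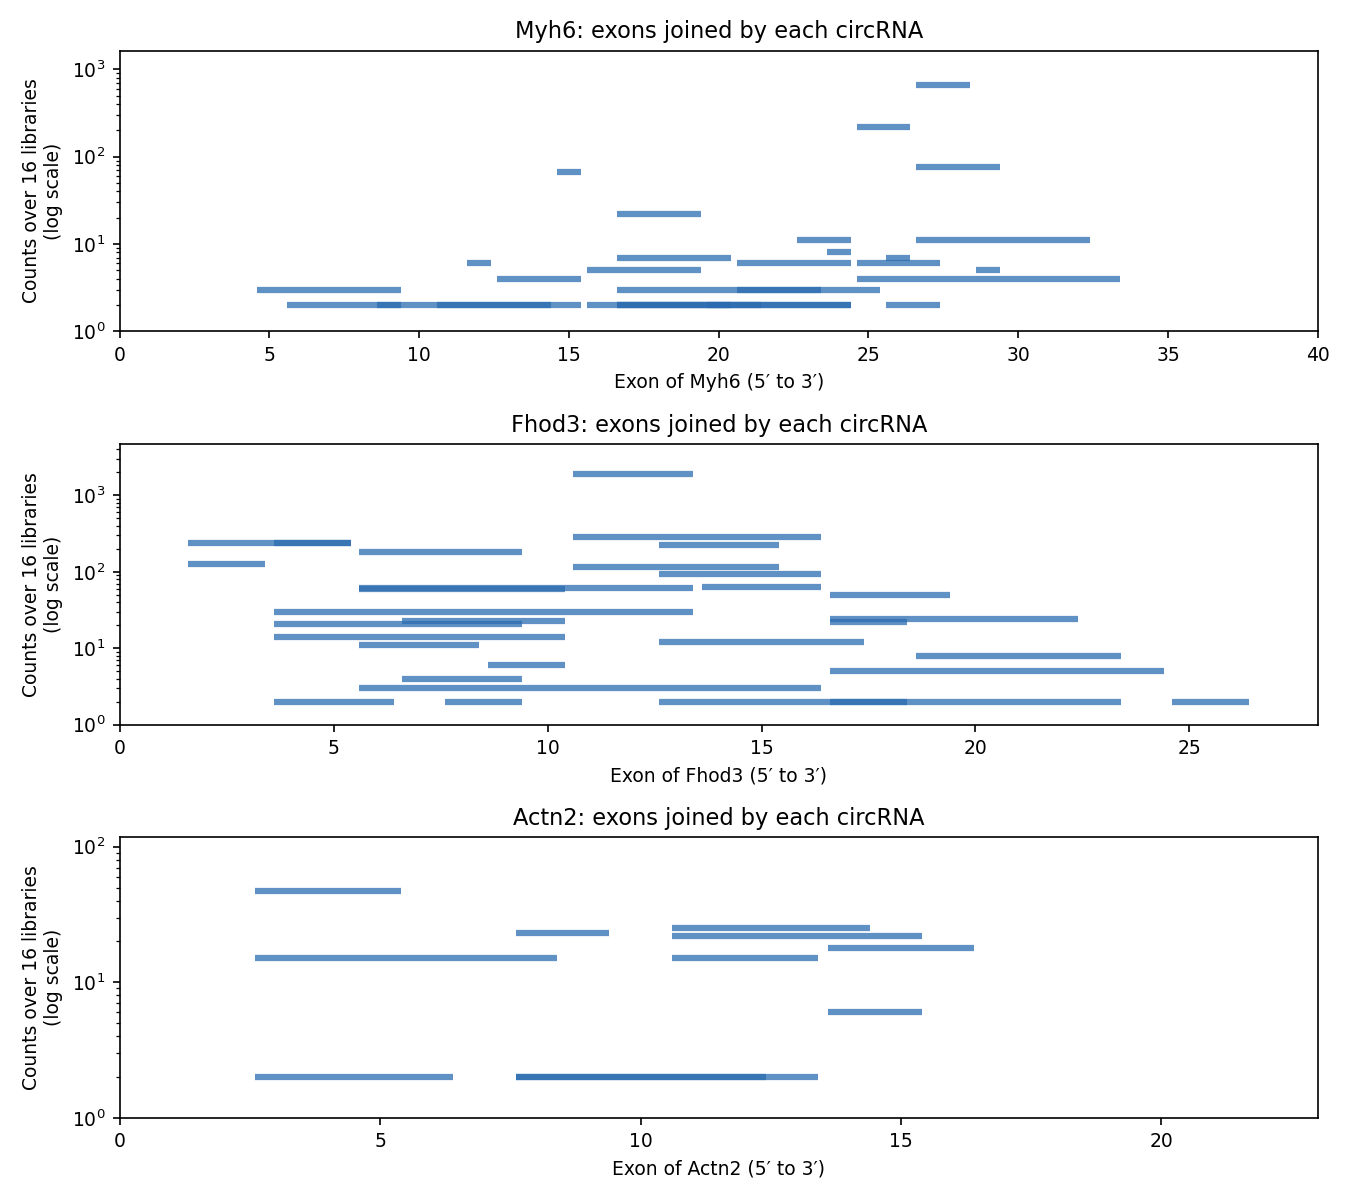
Exons joined by each exonic circRNA with both ends on exon ends, for Myh6, Fhod3 and Actn2. Each bar runs from the first to the last exon of 1 circRNA (x axis, exon number from the 5′ end) at the height of its summed back-splice count over 16 libraries (y axis, log scale). One circle stands above the others in Myh6 (exons 27 to 28, 655 counts) and in Fhod3 (exons 11 to 13, 1880 counts), whereas the Actn2 circles all lie at or below 47 counts.

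Myh6 lies on chromosome 14 at 54941921 to 54966927 on the minus strand (GRCm38; the reference transcript has 39 exons and 1938 codons). Its leading circle, novel_circ_019588, joined exons 27 and 28 (chr14:54949845-54950178), covered codons 1245 to 1326 and held 655 of the gene's 1260 counts, or 52.0%. The circle with the next highest count, novel_circ_019597, joined exons 25 and 26 (chr14:54950264-54952336), covered codons 1084 to 1244, was 481 nt long and held 219 counts, or 17.4%. Both circles were found in all 16 libraries, and the one ends where the other begins, since exon 26 is followed by exon 27. The circle novel_circ_019584 joined exons 27 to 29 (76 counts, 14 libraries), novel_circ_019646 was exon 15 alone (67 counts, 13 libraries), and novel_circ_019639 joined exons 17 to 19 (22 counts, 7 libraries). The acceptor of exon 27 was shared by 4 circles that together held 59.1% of the counts, 655 of these 745 counts from the leading circle.

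The junction of novel_circ_019597 is shown, because all its counts rest on reads across it and its level is taken up again below. It is printed in the sense direction from GENCODE M21 transcripts. The last 30 bases before the back-splice (the donor side) are in lower case and the 30 bases after it (the acceptor side) are in capitals.
novel_circ_019597, junction: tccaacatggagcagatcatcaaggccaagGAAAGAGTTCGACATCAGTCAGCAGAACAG
At 246 nt the leading circle has a length that is a multiple of 3, and the 481 nt circle does not.

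Myh6 has a near-identical neighbour on the same strand, Myh7, which encodes β-myosin heavy chain, so the assignment of its reads was examined. The 30 bases on the donor side of novel_circ_019588 differ from Myh7 at 2 positions and those on the acceptor side at 6. For novel_circ_019597 these numbers are 0 and 11. Across the whole 60 bases of the junction, the 5 named Myh6 circles differ from the closest linear transcript of the family at 16 to 22 positions. The table lists 24 further circRNAs that run from Myh6 into Myh7, which carry no gene symbol and are not among the 193. They hold 2933 counts, against 1260 for Myh6 itself and 17 for Myh7. Of the 16 that have both ends on exon ends, 13 have a junction within 3 of 60 bases of an ordinary linear Myh6 exon junction, and these 13 hold 2901 counts (98.9% of the counts of the 24).

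The largest of them, novel_circ_019686 (chr14:54963896-54991994, 2246 counts, 14 libraries), joins exon 4 of Myh6 to exon 6 of Myh7 and differs from the linear Myh6 sequence at 1 position. Its junction is shown above the linear Myh6 sequence at the end of exon 4, with the same use of capitals.
novel_circ_019686, junction: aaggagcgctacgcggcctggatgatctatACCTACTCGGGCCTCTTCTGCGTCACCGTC
Myh6, linear junction after exon 4: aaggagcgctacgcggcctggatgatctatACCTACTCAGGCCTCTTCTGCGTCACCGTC
The counts of these Myh6 to Myh7 circRNAs ran from 37 to 174 per library in MIRI+AICAR, 154 to 309 in MIRI+Compound C, 30 to 144 in MIRI and 174 to 304 in Sham. They are not part of any Myh6 value below. The table also lists 118 circRNAs with 388 counts on the strand opposite to Myh6 within the gene, against 4 with 2 counts for Fhod3 and 4 with 0 counts for Actn2.

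Actn2 lies on chromosome 13 at 12269426 to 12340760 on the minus strand (22 exons, 894 codons) and had only 179 counts over 16 libraries. Its leading circle, novel_circ_016397, joined exons 3 to 5 (chr13:12308900-12310961, codons 43 to 150, 322 nt) and held 47 counts in 7 libraries. The circles novel_circ_016384 (exons 11 to 14, 25 counts), novel_circ_016390 (exons 8 to 9, 23 counts), novel_circ_016383 (exons 11 to 15, 22 counts) and novel_circ_016381 (exons 14 to 16, 18 counts) followed. The junction of the leading circle is shown because the α-actinin genes are similar: its donor side differs from Actn1, Actn3 and Actn4 at 3, 3 and 4 of 30 positions and its acceptor side at 2, 2 and 5.
novel_circ_016397, junction: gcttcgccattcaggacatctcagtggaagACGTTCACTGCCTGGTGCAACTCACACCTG

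Fhod3 lies on chromosome 18 at 24708623 to 25133501 on the plus strand (27 exons, 1578 codons) and had 3865 counts. The leading circle, novel_circ_030832, joined exons 11 to 13 (codons 400 to 586, 558 nt) and held 48.6% of them. The next were novel_circ_030835 (exons 11 to 16, 282 counts), novel_circ_030808 (exons 4 to 5, 239 counts), novel_circ_030802 (exons 2 to 5, 235 counts) and novel_circ_030838 (exons 13 to 15, 225 counts). The acceptor of exon 11 was used by 4 circles with 59.1% of the counts, and the donor of exon 13 by 3 circles with 51.0%. As in Myh6, most counts at this acceptor were those of the leading circle, 1880 of 2285. Other Fhod3 acceptors were used by up to 5 circles. The Fhod3 circles reached from exon 2 to exon 26.

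To ask whether injury and the AMPK agents went with the output of circles, the counts of each gene were summed per library. Levels of sums are CPM over the scaled total of tested host genes, and they are compared within a gene only. Levels of single circles below are CPM over the scaled total of tested circRNAs, so they are not on the scale of the sums. The summed Myh6 level was 360, 384, 446, 353 and 376 CPM in MIRI+AICAR, 525, 581, 443, 562 and 620 CPM in MIRI+Compound C, 372, 509 and 487 CPM in MIRI, and 730, 551 and 459 CPM in Sham. All 5 MIRI+AICAR libraries lay below all 3 Sham libraries and 4 of the 5 lay below all MIRI+Compound C libraries. The counts behind these levels were 55 to 101 per library. Unscaled, the Myh6 counts of MIRI+AICAR (64 to 99) and Sham (72 to 85) overlapped. The separation is thus one of levels scaled to the library total, which was larger in MIRI+AICAR. Here and for single circles below, the share of all tested host genes or circRNAs that separate as fully was not counted. From low to high, the group means were 384 ± 36.7 CPM for MIRI+AICAR, 456 ± 73.5 CPM for MIRI, 546 ± 67.0 CPM for MIRI+Compound C and 580 ± 138 CPM for Sham (SD, n = 5, 3, 5 and 3), and neighbours in this order overlapped.

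The summed Fhod3 level was 1233, 1325, 1117, 1542 and 1068 CPM in MIRI+AICAR, 1525, 1800, 1628, 1568 and 1680 CPM in MIRI+Compound C, 1123, 1659 and 1125 CPM in MIRI, and 1735, 1347 and 1893 CPM in Sham. Of the MIRI+AICAR libraries, 4 of 5 lay below all MIRI+Compound C libraries and 4 of 5 below all Sham libraries. In MIRI, replicate 2 stood with the Sham libraries while the other two lay below all of them. The group means were 1257 ± 188 CPM in MIRI+AICAR, 1640 ± 107 in MIRI+Compound C, 1302 ± 309 in MIRI and 1658 ± 281 in Sham.

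The summed Actn2 level was 11.3, 23.2, 81.1, 90.5 and 32.2 CPM in MIRI+AICAR, 73.0, 63.2, 127, 67.4 and 62.0 CPM in MIRI+Compound C, 20.3, 47.9 and 67.2 CPM in MIRI, and 180, 40.8 and 108 CPM in Sham. These values rest on 2 to 23 counts per library, and every pair of groups overlapped. The group means were 47.6 ± 35.7 CPM in MIRI+AICAR, 78.6 ± 27.6 in MIRI+Compound C, 45.1 ± 23.6 in MIRI and 110 ± 69.8 in Sham.

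**Figure D2:**
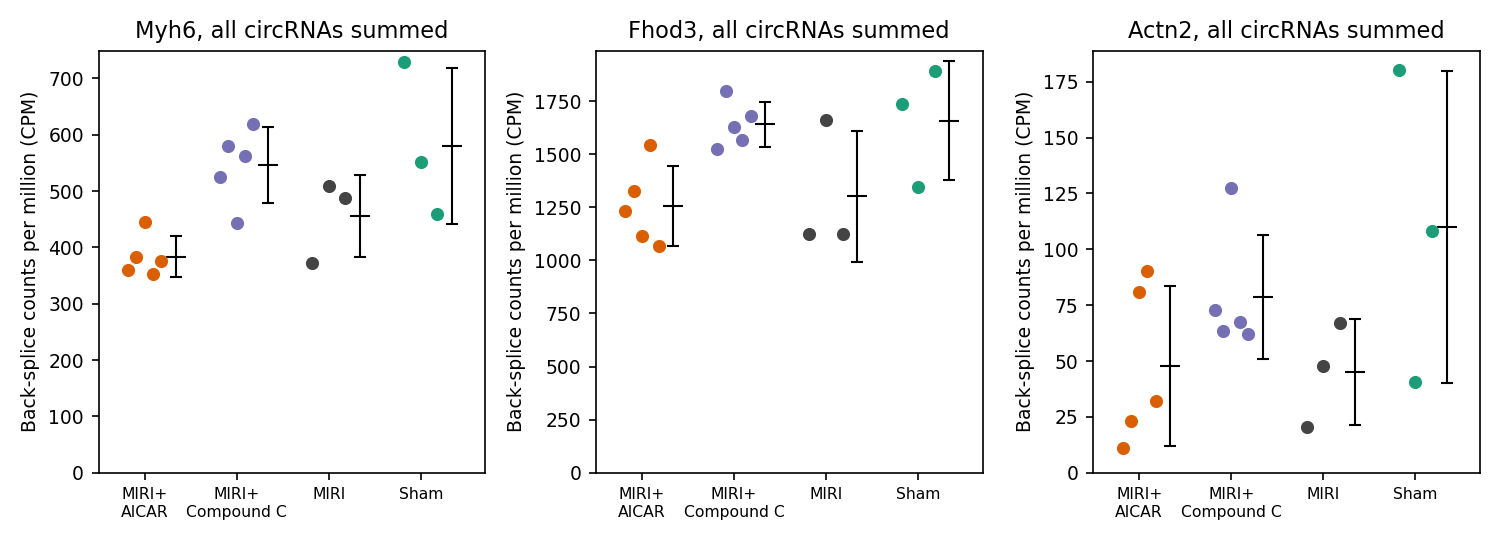
Summed circRNA level of Myh6, Fhod3 and Actn2 in each library. The y axis is CPM, each point is 1 library, and the bar beside each group is the mean with its SD (n = 5 for MIRI+AICAR and MIRI+Compound C, 3 for MIRI and Sham). For Myh6 the MIRI+AICAR points, from 353 to 446 CPM, all lie below the Sham points, whereas the Actn2 groups overlap.

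The sums were tested in 1 fit of all 16 libraries over 3699 host genes (edgeR quasi-likelihood F test, two-sided, Benjamini-Hochberg adjustment over all tested host genes, called at an adjusted p under 0.05). Over the 4 groups at once, 2.7% of the host genes were called, and none of the 3 was among them: the adjusted p from edgeR was 0.107 for Myh6, 0.178 for Fhod3 and 0.503 for Actn2. Without MIRI replicate 2 the edgeR adjusted p of Fhod3 was 0.0374. Fhod3 was not called in the other 22 of 23 alternative runs. In the 6 pairwise comparisons, edgeR called 0 of 3 sums each time; at an unadjusted p under 0.05 it gave 2 in MIRI+AICAR against MIRI+Compound C, 3 in MIRI+AICAR against Sham, 2 in MIRI against Sham, 1 in MIRI+Compound C against MIRI and 0 in the other two. Over all 3699 host genes the share at that threshold was 11.9%, 13.2%, 9.03% and 9.0% in these 4 comparisons, and 6.76% in MIRI+AICAR against MIRI and 6.38% in MIRI+Compound C against Sham. The differences of the 3 sums are therefore given as values.

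Between the agents, MIRI+AICAR against MIRI+Compound C, all 3 estimates were negative. The log2 fold change was -0.51 for Myh6 (SE 0.15, 95% interval -0.81 to -0.20, adjusted p = 0.0783 from edgeR). It was -0.38 for Fhod3 (SE 0.13, 95% interval -0.64 to -0.12, adjusted p = 0.138) and -0.66 for Actn2 (SE 0.44, 95% interval -1.56 to 0.24, adjusted p = 0.604). In this comparison 1.95% of all tested host genes were called. The Myh6 difference passed the threshold under DESeq2, whose adjusted p was 0.0478. With only the 2 groups in the fit, the edgeR adjusted p was 0.0301 for both Myh6 and Fhod3, at the same sizes (log2 -0.51 and -0.38). Most alternatives left both uncalled: 21 of 24 runs for Myh6, with an edgeR adjusted p of up to 0.192, and 23 of 24 for Fhod3, up to 0.323.

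Against Sham, MIRI+AICAR hearts again gave 3 negative estimates. The log2 fold change was -0.58 for Myh6 (SE 0.17, 95% interval -0.93 to -0.23, adjusted p = 0.0811 from edgeR), -0.40 for Fhod3 (SE 0.15, 95% interval -0.70 to -0.10, adjusted p = 0.188) and -1.10 for Actn2 (SE 0.50, 95% interval -2.11 to -0.08, adjusted p = 0.325). In this comparison 1.97% of host genes were called. Without Sham replicate 3, the Myh6 difference was -0.73 and its edgeR adjusted p was 0.0402. In the other 23 of 24 alternative runs it was not called, with an edgeR adjusted p of up to 0.460. Both comparisons use the same MIRI+AICAR libraries and so are not independent of each other.

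The leukocyte, fibroblast, platelet and smooth muscle sums separated MIRI+AICAR from MIRI+Compound C and Sham, some by narrow gaps. The endothelial sum separated MIRI+AICAR from MIRI+Compound C but overlapped with that of Sham. How often sums of other host genes separate as fully was not counted. The leukocyte sum was 3257 to 4136 CPM in MIRI+AICAR, against 2553 to 3134 CPM in MIRI+Compound C and 1787 to 2986 CPM in Sham; 10 of its 12 genes had a count, while Csf1r and Cd163, both macrophage markers, had 0 counts in all libraries, and Ptprc, the common leukocyte antigen, had 2 counts. The sum of 8 smooth muscle and pericyte markers, 5 of them with a count, was 1111 to 1720 CPM in MIRI+AICAR, 1727 to 1977 CPM in MIRI+Compound C and 1752 to 1986 CPM in Sham. Its largest gene, Abcc9, had 3314 counts over the 16 libraries, the next, Itga1, had 756, and Pdgfrb, Kcnj8 and Cspg4 had 0. The sum of 11 endothelial markers was 2167 to 2929 CPM in MIRI+AICAR, 3047 to 4625 CPM in MIRI+Compound C and 2525 to 3647 CPM in Sham. The sum of 10 fibroblast markers, 7 of them with a count, was 1000 to 1180 CPM in MIRI+AICAR, 722 to 938 CPM in MIRI+Compound C and 733 to 891 CPM in Sham. Of these markers, Ltbp1 had 2100 counts and the next, Col3a1, had 275, while Tcf21, Postn and Lox had 0. The fibroblast sum and the smooth muscle and pericyte sum were thus each carried mainly by 1 gene. The other sums rested on few genes too. In the endothelial list Pecam1 had 4509 counts and the next, Flt1, had 1135, while Cdh5 had 23 and Kdr 11. In the leukocyte list Adgre1 had 3622, F13a1 1797 and Mrc1 1588, and the next, Dock8, had 381. In MIRI the leukocyte sum was 2888 to 4189 CPM and the fibroblast sum 940 to 1793 CPM. The smooth muscle and pericyte sum there was 1205 to 1814 CPM, and the endothelial sum 2294 to 3066 CPM. The platelet and megakaryocyte sum was 1019 to 4238 CPM in MIRI+AICAR, 742 to 972 CPM in MIRI+Compound C, 1006 to 14894 CPM in MIRI and 773 to 843 CPM in Sham. The cardiomyocyte sum overlapped between the groups, at 25018 to 36041 CPM in MIRI+AICAR, 24796 to 41369 CPM in MIRI+Compound C and 27933 to 34209 CPM in Sham. Most of its counts were those of Slc8a1 (31164), Ttn (23753) and Ryr2 (20321), so its overlap speaks mainly for these genes. Tnnt2 had 76, Mybpc3 63, Ldb3 32 and Myh7 17. The part of these cell markers in the Myh6 and Fhod3 differences was not tested.

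Injury alone, MIRI against Sham, gave log2 fold changes of -0.34 for Myh6 (SE 0.19, 95% interval -0.73 to 0.06), -0.34 for Fhod3 (SE 0.17, interval -0.68 to -0.003) and -1.27 for Actn2 (SE 0.60, interval -2.50 to -0.04). The edgeR adjusted p was 0.666, 0.544 and 0.525 for these genes, and 0.162% of host genes were called. Myh6 was at -0.15 without Sham replicate 1 and -0.22 without MIRI replicate 1, Fhod3 at -0.57 without MIRI replicate 2, and Actn2 at -0.76 without Sham replicate 1. MIRI+Compound C against Sham gave the estimates closest to 0 for Myh6 and Fhod3: -0.08 for Myh6 (interval -0.43 to 0.27), -0.02 for Fhod3 (interval -0.31 to 0.28) and -0.44 for Actn2 (interval -1.43 to 0.56), with 0.027% of host genes called. Without Sham replicate 1, all 3 of these estimates changed sign, to 0.11, 0.02 and 0.08.

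The agents were also set against injury alone. MIRI+AICAR against MIRI gave -0.25 for Myh6 (interval -0.61 to 0.11), -0.06 for Fhod3 (interval -0.36 to 0.25) and 0.17 for Actn2 (interval -0.999 to 1.34), with 0.027% of host genes called. For Actn2 the sign turned in 5 of 24 alternative runs. In 3 of these 1 library was left out (-0.19 to -0.09), and another was the run without the 2 libraries of high platelet markers (-0.06). The Fhod3 sign turned in 2 of 24 runs. MIRI+Compound C against MIRI gave 0.26 for Myh6 (interval -0.10 to 0.61), 0.33 for Fhod3 (interval 0.02 to 0.63, adjusted p = 0.463 from edgeR) and 0.83 for Actn2 (interval -0.31 to 1.97), with 0.595% of host genes called. Without MIRI replicate 1, Myh6 was at 0.13 and Actn2 at 0.49, and without MIRI replicate 2 Fhod3 was at 0.55.

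**Figure D3:**
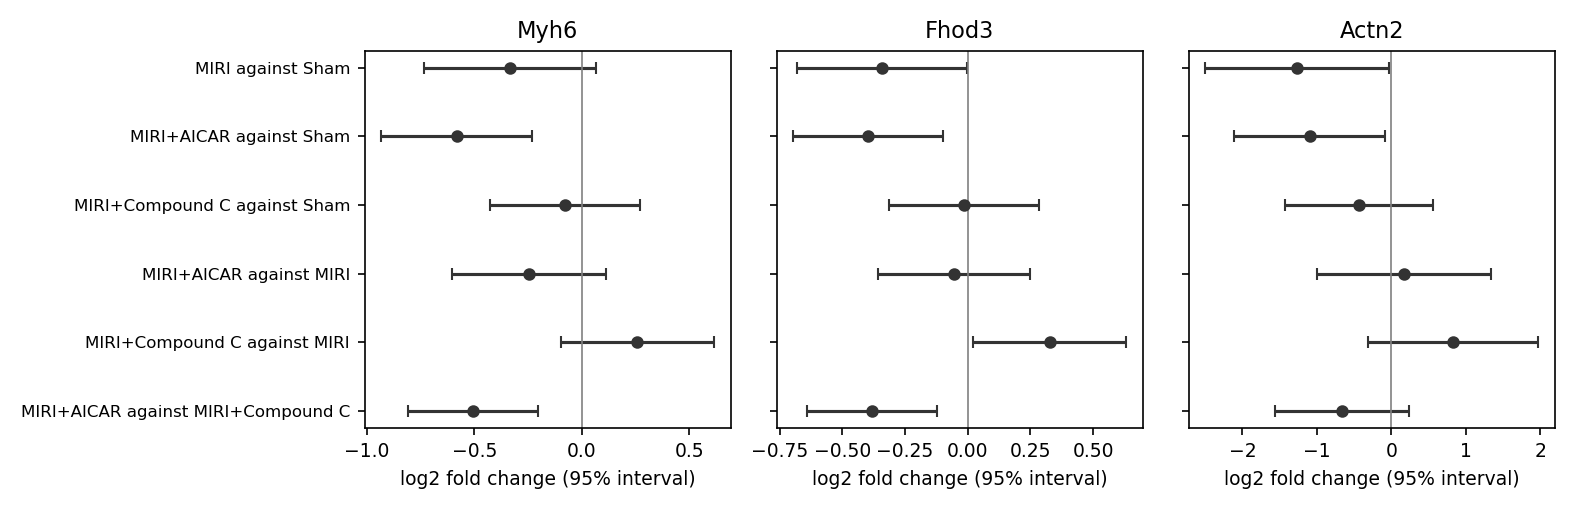
Log2 fold change of the summed circRNA level of each gene in the 6 comparisons, the first-named group over the other. Points are edgeR estimates and bars are 95% intervals from the same fit, before any adjustment over genes; the x axis differs between panels. The Myh6 and Fhod3 intervals for MIRI+AICAR lie below 0 against Sham and against MIRI+Compound C, as do those of Fhod3 for MIRI against Sham and of Actn2 for MIRI and MIRI+AICAR against Sham. The Actn2 intervals are the widest.

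Single circles were tested in the same way over 7917 circRNAs. Of the 18 tested circles (4 of Myh6, 13 of Fhod3, 1 of Actn2), 1 was called in MIRI+AICAR against MIRI+Compound C, where 0.556% of all tested circRNAs were called, and 0 in each of the other 5 comparisons. There the background was 0.467% for MIRI+AICAR against Sham, 0.0884% for MIRI+Compound C against MIRI, 0.0253% for MIRI against Sham, 0.0253% for MIRI+AICAR against MIRI and 0% for MIRI+Compound C against Sham. At an unadjusted p under 0.05, edgeR gave 2, 2, 0, 1 and 2 of the 18 circles in these 5 comparisons in the same order, beside 10.4%, 6.47%, 6.82%, 4.9% and 5.17% of all tested circRNAs, and DESeq2 called 0 in each, with no adjusted p for 16 of the 18 in the first and for 11 in the second. In MIRI+AICAR against MIRI+Compound C, edgeR gave 2 lower and 0 higher at that threshold, beside 8.51% of all tested circRNAs.

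The called circle was novel_circ_019597 of Myh6, exons 25 to 26. Its level was 43.6, 44.1, 75.2, 43.4 and 71.9 CPM in MIRI+AICAR and 89.9, 143, 109, 148 and 146 CPM in MIRI+Compound C, so that every MIRI+AICAR library lay below every MIRI+Compound C library. It stood at 65.7, 115 and 121 CPM in MIRI and 88.1, 94.8 and 54.0 CPM in Sham, between and across both. The counts behind these levels were 7 to 24 per library. It was lower in MIRI+AICAR by a log2 fold change of -1.18 (SE 0.28, adjusted p = 0.0483 from edgeR). DESeq2 called it too, and gave no adjusted p for 11 of the 18 circles in this comparison. The call is close to the threshold: it was lost on leaving out any one of 13 of the 16 libraries, with an adjusted p between 0.05003 and 0.142, while the log2 fold change stayed between -1.31 and -1.09. It was also lost with no filter on low counts (edgeR adjusted p = 0.319).

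The neighbouring leading circle, novel_circ_019588, was at 293, 201, 251, 236 and 204 CPM in MIRI+AICAR, 307, 243, 248, 198 and 285 CPM in MIRI+Compound C, 263, 326 and 199 CPM in MIRI, and 458, 343 and 284 CPM in Sham. Its MIRI+AICAR and MIRI+Compound C libraries overlapped through most of their range, with means of 237 ± 37.6 and 256 ± 42.1 CPM (SD, n = 5 each). Of the less abundant Myh6 circles, novel_circ_019584 had means of 24.8 to 41.7 CPM over the 4 groups and novel_circ_019646 of 21.3 to 29.5 CPM, with SDs up to 26.4 CPM.

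**Figure D4:**
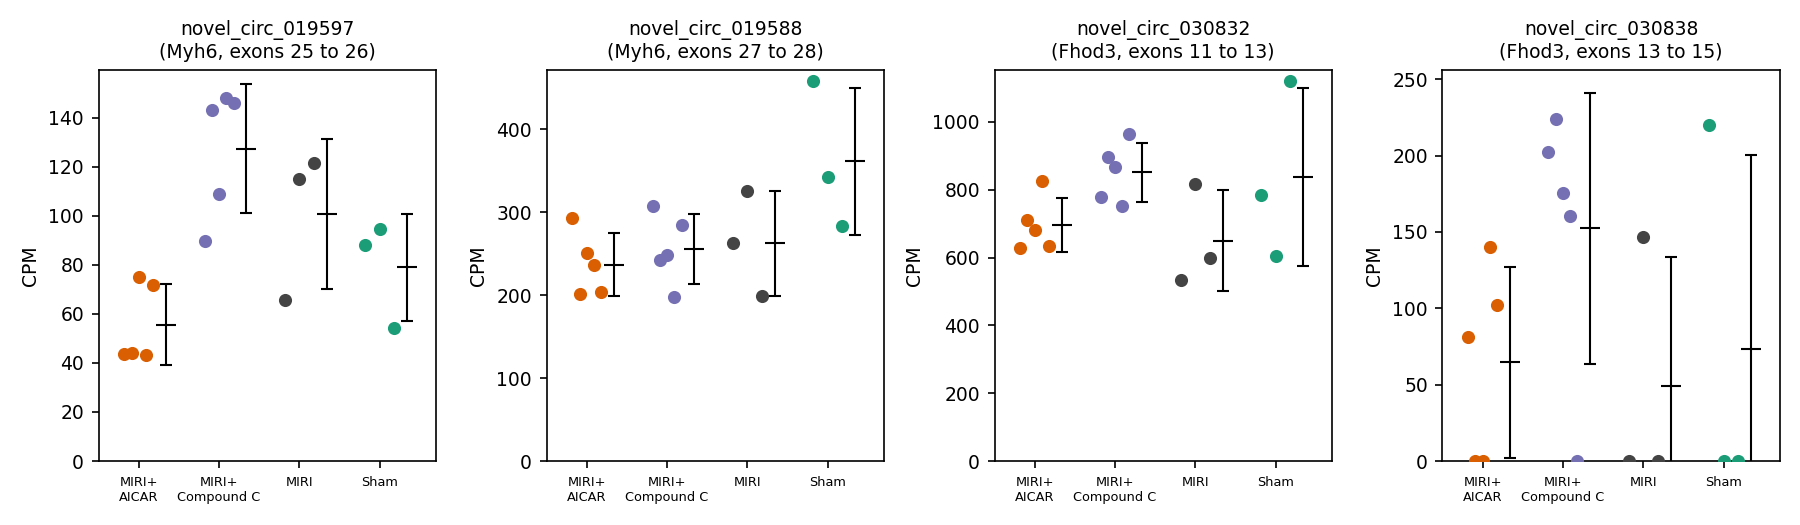
Level of 4 circRNAs in each library: novel_circ_019597 and novel_circ_019588 of Myh6, novel_circ_030832 and novel_circ_030838 of Fhod3. The y axis is CPM, each point is 1 library, and bars are the mean with its SD (n = 5, 5, 3 and 3). For novel_circ_019597 the MIRI+AICAR and MIRI+Compound C points do not overlap, and novel_circ_030838 is at 0 in 7 libraries spread over all 4 groups.

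The leading Fhod3 circle, novel_circ_030832, was at 629, 711, 681, 825 and 635 CPM in MIRI+AICAR, 779, 896, 866, 753 and 964 CPM in MIRI+Compound C, 533, 817 and 598 CPM in MIRI, and 784, 605 and 1121 CPM in Sham. In 4 of the 5 MIRI+AICAR libraries it lay below all MIRI+Compound C libraries, as the gene's sum did. Among the Fhod3 circles the smallest p was that of novel_circ_030801 (exons 2 to 3, 172 nt, 125 counts) in MIRI+AICAR against Sham. Its level was 43.6, 31.5, 70.1, 19.3 and 17.98 CPM in MIRI+AICAR and 96.9, 87.5 and 74.3 CPM in Sham, which do not overlap. The MIRI libraries, at 65.7, 63.8 and 34.7 CPM, also lay below all Sham libraries. In MIRI+Compound C it was at 59.9, 43.6, 36.3, 18.5 and 80.3 CPM, with 4 of 5 libraries below all Sham libraries. For MIRI+AICAR against Sham the log2 fold change was -1.20 (SE 0.45, adjusted p = 0.281 from edgeR) and so was not called.

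The Fhod3 circle novel_circ_030838 (exons 13 to 15) had 13, 0, 0, 29 and 17 counts in MIRI+AICAR, 27, 36, 29, 26 and 0 in MIRI+Compound C, 0, 23 and 0 in MIRI, and 25, 0 and 0 in Sham. No library lay between 0 and 13 counts. The circles novel_circ_030835, novel_circ_030808 and novel_circ_030802 had means of 105 to 124, 79.0 to 119 and 67.4 to 131 CPM over the 4 groups. The Actn2 circle novel_circ_016397 had 0, 0, 8, 7 and 0 counts in MIRI+AICAR, 4, 0, 9, 0 and 0 in MIRI+Compound C, 0, 5 and 0 in MIRI, and 5, 0 and 9 in Sham. Its smallest p was in MIRI against Sham, at a log2 fold change of -1.54 (SE 1.57, adjusted p = 0.958 from edgeR), which leaves its direction unknown at this depth.

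To ask whether a gene's counts shifted between its circles, the share of the leading circle was compared over the 4 groups, since this share does not depend on library scaling. For Myh6 it was 56.2% ± 10.7 in MIRI+AICAR, 44.4% ± 9.91 in MIRI+Compound C, 55.0% ± 13.6 in MIRI and 59.2% ± 1.74 in Sham (SD, n = 5, 5, 3 and 3; exact permutation test over 40360320 assignments, p = 0.211, adjusted over 3 genes 0.632). For Fhod3 it was 50.3% ± 3.67, 48.4% ± 3.93, 47.2% ± 3.86 and 47.3% ± 7.53 in the same order (exact permutation p = 0.751, adjusted 0.931). Neither share was shown to differ between the groups. For Actn2 the share was 15.6%, 15.8%, 20.8% and 25.6%, with SDs of 21.7 to 36.1 percentage points (exact permutation p = 0.931, adjusted 0.931), and the leading circle was at 0 in 9 of 16 libraries.

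**Figure D5:**
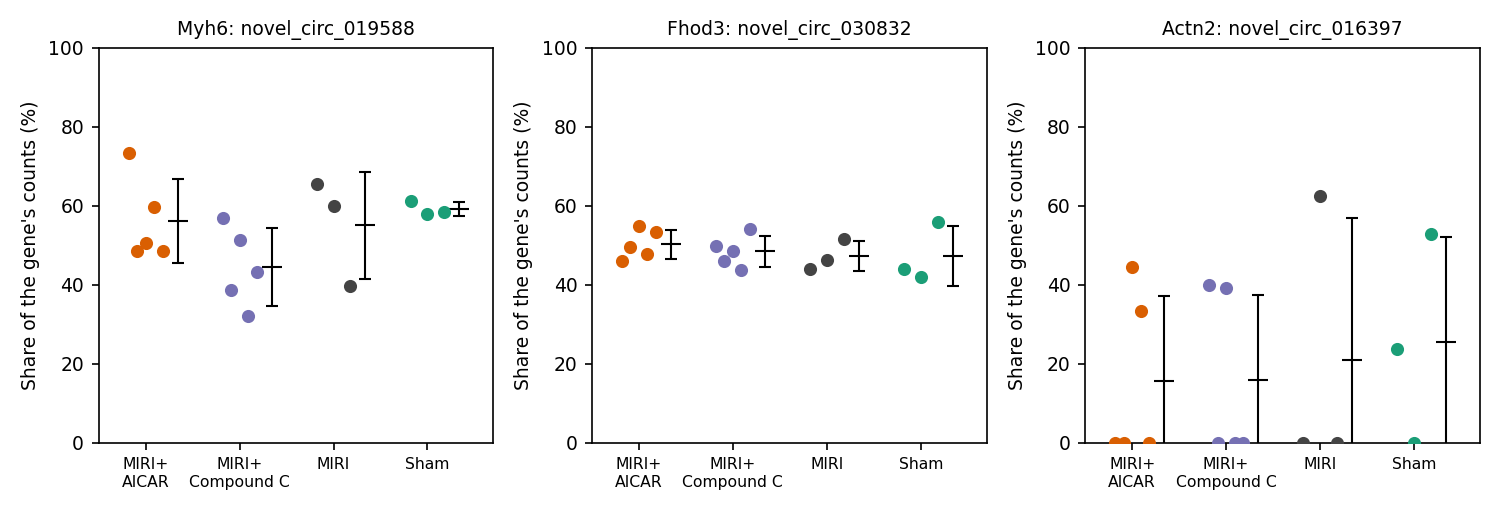
Share of each gene's back-splice counts held by its leading circRNA, in percent, by library. Points are libraries and bars are the mean with its SD (n = 5, 5, 3 and 3). Fhod3 shares stay between 41.9% and 55.9% in all 16 libraries, Myh6 shares between 32.0% and 73.4%, and Actn2 shares reach from 0% to 62.5%.

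Other genes of the sarcomere were read from lists of thick filament, thin filament, Z-disc, M-band and assembly proteins. Of 71 genes other than the 3, 35 were tested, and in MIRI+AICAR against MIRI+Compound C 2 were called lower and 0 higher. Of all tested host genes 1.95% were called there. At an unadjusted p under 0.05, edgeR gave 10 of the 35, beside 11.9% of all tested host genes. The median log2 fold change of the 35 was -0.003, beside 0.02 over all tested host genes. Fhl2, a LIM protein of the Z-disc, was at 2391 ± 178 CPM in MIRI+AICAR, against 4065 ± 397 CPM in MIRI+Compound C (SD, n = 5 each). The log2 fold change was -0.76 (SE 0.12, adjusted p = 0.000278 from edgeR). In MIRI Fhl2 was at 3010 ± 825 CPM, and MIRI+AICAR was not called against MIRI (log2 -0.33, adjusted p = 0.591 from edgeR). Ttn, the giant spring protein that spans the sarcomere from Z-disc to M-band, was at 7590 ± 1044 CPM in MIRI+AICAR, against 10187 ± 999 CPM in MIRI+Compound C (log2 fold change -0.42, SE 0.11, adjusted p = 0.0452 from edgeR). Ttn was at 8276 ± 1674 CPM in MIRI and 10047 ± 1710 CPM in Sham. The Ttn call was lost without any one of 9 libraries, with an adjusted p of up to 0.145.

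In MIRI+AICAR against Sham, 1 of the 35 was called lower and 0 higher, with a median of -0.10 beside 0.04 over all tested host genes. Of all tested host genes 1.97% were called there. At an unadjusted p under 0.05, edgeR gave 7 of the 35, beside 13.2% of all tested host genes. The called gene was again Fhl2, at 2391 ± 178 CPM in MIRI+AICAR and 4373 ± 601 CPM in Sham (log2 fold change -0.87, SE 0.13, adjusted p = 0.000255 from edgeR). In the other 4 comparisons edgeR called 0 of the 35, with 2 at an unadjusted p under 0.05 in MIRI against Sham, 3 in MIRI+Compound C against Sham, 4 in MIRI+AICAR against MIRI and 2 in MIRI+Compound C against MIRI, beside 9.03%, 6.38%, 6.76% and 9.0% of all tested host genes. Outside MIRI+AICAR against MIRI, the smallest p belonged to Fhl2 in MIRI against Sham (log2 -0.54, adjusted p = 0.160 from edgeR), Pdlim5 in MIRI+Compound C against Sham (log2 -0.28, adjusted p = 0.698 from edgeR) and Fhl2 in MIRI+Compound C against MIRI (log2 0.44, adjusted p = 0.171 from edgeR). Pdlim5 is a PDZ and LIM domain protein of the Z-disc. The Fhl2 difference of MIRI against Sham was called under DESeq2 (adjusted p = 0.0438), with no filter (edgeR adjusted p = 0.0184) and without MIRI replicate 3 (log2 -0.78, edgeR adjusted p = 0.00511). That of MIRI+Compound C against MIRI was called with no filter (edgeR adjusted p = 0.0432) and without MIRI replicate 3 (log2 0.67, edgeR adjusted p = 0.00598). The remaining 21 and 22 of 24 alternative runs left these Fhl2 differences uncalled.

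Next in order of p came Trim54 and Ttn in MIRI against Sham, with 0.446 and 0.605 as adjusted p from edgeR. Smyd2 and Trim54 followed in MIRI+Compound C against Sham (both 0.755), Fhl2 and Sorbs2 in MIRI+AICAR against MIRI (0.591 and 0.734), and Ttn and Mef2c in MIRI+Compound C against MIRI (0.444 and 0.623). Smyd2 is a lysine methyltransferase, Sorbs2 a Z-disc adaptor and Mef2c a transcription factor of muscle genes. Trim54, a muscle ubiquitin ligase, was listed at 0 in all 3 Sham libraries and averaged 3.22 ± 7.20 CPM in MIRI+AICAR, 18.5 ± 12.5 CPM in MIRI+Compound C and 26.0 ± 22.7 CPM in MIRI.

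Of the closest relatives, 3 genes of the myosin heavy chain family, 7 formins and 2 α-actinins were tested, the 3 described genes included. The only one called in any of the 6 comparisons was Myh10, a non-muscle myosin heavy chain, which was listed at 0 in all 3 Sham libraries and averaged 57.2 ± 8.14 CPM in MIRI+AICAR (SD, n = 5; adjusted p = 0.0197 from edgeR), 21.43 ± 16.03 CPM in MIRI+Compound C and 21.4 ± 24.0 CPM in MIRI. Because Sham was listed at 0, no fold change is given, and the call was lost without any one of the 3 Sham libraries. Actn1, which encodes an α-actinin of non-muscle cells, averaged 45.1 ± 24.3 CPM in MIRI+AICAR, 52.3 ± 19.9 in MIRI+Compound C, 77.2 ± 51.7 in MIRI and 54.5 ± 45.6 in Sham.

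The pattern of each gene over the 16 libraries was set beside that of all other tested host genes by Pearson's r of log2 CPM, as a description, since all values share the libraries and their depth. Most like Myh6 were Arhgap26 (r = 0.85), Dpysl2 (0.84), Cpeb3 (0.82), Fhl2 (0.82) and Nlrc5 (0.79). Most like Fhod3 were Mcc (0.82), Gusb (0.80), Ttn (0.78), Flt1 (0.77) and Pdgfb (0.76). Most like Actn2 were Cand2 (0.81), Arhgap26 (0.76), Ryr2 (0.74), Ccz1 (0.73) and Galnt18 (0.73). Among themselves the 3 genes had r of 0.57 for Myh6 with Fhod3, 0.56 for Myh6 with Actn2 and 0.59 for Fhod3 with Actn2, with Spearman's rho of 0.59, 0.31 and 0.51, and the highest rank of one of the 3 in the list of another was that of Fhod3 for Actn2, at 62.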

How the data were processed

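Per the labels' protocols, ribosomal RNA was removed, RNase R digested linear RNA, and strand-specific (dUTP) libraries were sequenced as DNA nanoballs. The deposited values are counts of back-splice reads from CIRI, per the file header; neither its version nor a read minimum is stated. The smallest count above 0 is 2, so a listed 0 can hide 1 read. The submitters' processing notes name build mm9, but circle ends lie on GENCODE M21 exon ends of GRCm38 and on 0 after a shift of 1 base; coordinates are GRCm38.

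Counts were analysed singly and summed per symbol in edgeR 4.0.16 (R 4.3.3; filterByExpr, minimum count 5, total 15; TMM; quasi-likelihood F test, 1 fit of 4 groups; Benjamini-Hochberg). Scripts were tested on simulated data. Members, lists and tests were chosen with earlier results of these data known. Named were each gene's 5 circRNAs of highest mean count, called circles, the circle of smallest p per gene, the 5 hosts most alike, and sarcomere genes called or of the 3 smallest p; 1 such gene is not reported here. Alternatives were DESeq2 1.42.0, other scalings and filters, a replicate block, only 2 groups, and each library left out; leaving out both high-platelet libraries was chosen after seeing the data. Intervals cover only the spread between libraries.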

Additional observations from a re-analysis of the deposited data

Results flagged for a closer look

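A test for a sample far from the others was run on 32 groups of 5 libraries, and chance alone flags about 1 in 20 groups. It marked 3 values, all in MIRI+Compound C. The summed Actn2 level of MIRI+Compound C replicate 3 was 127 CPM, above the 62.0 to 73.0 CPM of the other 4 libraries. The Fhod3 circle novel_circ_030808 was at 146 CPM in MIRI+Compound C replicate 5, above 80.2 to 90.9 CPM in the other 4. In the same library the Fhod3 circle novel_circ_030838 was at 0 CPM, below 160 to 224 CPM in the other 4.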

How the results depend on the processing

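The estimates for Myh6, Fhod3 and Actn2 kept their direction under every alternative run in 4 of 6 comparisons, all but MIRI+AICAR against MIRI and MIRI+Compound C against Sham. In MIRI+AICAR against MIRI+Compound C, Myh6 was -0.50 under DESeq2 (adjusted p = 0.0478) and -0.51 with only the 2 groups (edgeR adjusted p = 0.0301), where Fhod3 was -0.38 (edgeR adjusted p = 0.0301). Of 24 alternative runs, 21 left Myh6 and 23 left Fhod3 uncalled there, with an edgeR adjusted p of up to 0.192 and 0.323. The called circle novel_circ_019597 left 0 called circles with no filter (edgeR adjusted p = 0.319) and under the replicate block (0.0673), which also ended the Myh10 call (0.0690). Same-numbered libraries did not deviate together (20 pairs, r from -0.04 to 0.08), so the numbers were not taken as pairs. Under the replicate block Actn2 in MIRI+AICAR against MIRI was -0.0267, and without the 2 high-platelet libraries -0.0563. With 1 library left out at a time, log2 fold changes ranged as follows: MIRI+AICAR against MIRI, Actn2 -0.19 to 0.52 and Fhod3 -0.14 to 0.17; MIRI+Compound C against Sham, Myh6 -0.23 to 0.11, Fhod3 -0.144 to 0.0866 and Actn2 -0.839 to 0.0796; MIRI against Sham, Myh6 -0.50 to -0.15, Fhod3 -0.57 to -0.25 and Actn2 -1.68 to -0.76; MIRI+Compound C against MIRI, Myh6 0.13 to 0.35, Fhod3 0.23 to 0.55 and Actn2 0.49 to 1.18; MIRI+AICAR against Sham, Myh6 -0.73 to -0.39; MIRI+AICAR against MIRI+Compound C, Myh6 -0.57 to -0.46. The number of called circles ranged from 0 to 1, and the adjusted p of any difference in Fhod3 from 0.0374 (edgeR, without MIRI replicate 2) to 0.340, and to 0.400 without both high-platelet libraries. Actn2 is limited by depth, at 2 to 23 counts per library.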
